A study of Sus scrofa with 28 samples.

Results

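A set of 349 gene-end regions was listed as open chromatin in at least 14 of 28 pig liver libraries. They were chosen by chaining the peaks of all libraries that overlapped by at least 1 bp into 29392 regions. A region was kept where at least 14 libraries listed it and at least 50% of its peaks had their centre within 1000 bp of an annotated end of a RefSeq gene in the pig build Sscrofa11.1. In all, 468 regions reached 14 libraries, and the other 119 lay away from gene ends. The number of libraries, the overlap and the position near a gene end thus chose the regions and are given as descriptions.

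ATAC-seq uses a transposase that inserts sequencing adapters into accessible DNA, and a peak marks a stretch with more insertions than the caller's background. The liver samples came from female Zlotnicka White pigs, a native Polish breed, aged 180 days and slaughtered at about 100 kg. Per the labels, tissue was dissociated with Accutase, strained, slowly frozen in Cryostor and turned into libraries with a TruePrep kit. The 4 groups of 7 libraries combined high or low fat with a label number, giving high fat 200, low fat 200, high fat 600 and low fat 600. The labels do not state what 200 and 600 mean. Every 200 library carried lane tag L001 and every 600 library L002, which ties label number to lane, and their effects cannot be told apart. The labels file high and low fat under a tag called shear force. The labels name no animals, so p-values measure the spread between libraries, which may in part be technical.

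Promoters of genes that most cells use are kept free of stable nucleosomes by transcription factors and the polymerase machinery, and in ATAC-seq they usually give signal in every tissue. Enhancers, in contrast, are mostly open in the cell types that use them. Hepatocytes make up most of the liver mass and secrete large amounts of protein, so they rely on the folding machinery of the endoplasmic reticulum. The annotation used here gives both ends of a gene but no strand, so a gene end below can be its start or its end.

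The deposited list held 84192 peaks, and 5750 of them (6.83%) lay in the 349 regions. Libraries differed widely in size, from 39 to 17652 peaks. The median was 1610 for high fat 200, 2467 for low fat 200, 190 for high fat 600 and 526 for low fat 600. Of the hepatocyte markers ALB, APOA1, TTR, HNF4A, SERPINA1 and FGG, 5 of 6 had a peak near a gene end in at least 1 library. The corresponding counts were 1 of 6 for Kupffer cell markers, 0 of 6 for endothelial and stellate cells, 0 of 4 for cholangiocytes, 0 of 5 for lymphocytes and 1 of 4 for erythroid cells. Over all coding genes 47% had a peak near an end in some library, and 2.14% had one of the 349 regions. None of these markers, hepatocyte markers included, had one of the 349 regions, which for so few genes is near that share. Bulk lists cannot tell fewer cells of a type from less accessible chromatin in each cell. The part of cell makeup in the results below was not tested.

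No gene-end region was listed in all libraries. The highest number was 23, reached by 4 regions, followed by 2 regions at 22, 8 at 21, 10 at 20, 20 at 19 and 28 at 18. At the low side, 83 regions were listed in 15 libraries and 113 in 14. A further 143 gene-end regions stood at 13 libraries and were left out by the rule. The strongest regions just inside the limit, by the median −log10 p of their peaks, were at LYSMD3 (6.26), PPP3CA (6.13), USP1 (6.07) and SYNCRIP (5.93). Just outside, the values were 6.13 at ABHD17B, 5.84 at RPS29, 5.82 at ECT2 and 5.81 at RDH10. Over all regions at 14 libraries the median of these values was 5.07, with quartiles of 4.73 and 5.43, and over those at 13 it was 4.96, with quartiles of 4.63 and 5.28.

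Among the regions with the most libraries were those at SP4, ZBTB20 and TLE4. SP4 encodes a zinc finger factor that binds GC boxes, ZBTB20 a BTB zinc finger repressor that silences alpha-fetoprotein in the mouse liver, and TLE4 a Groucho-type corepressor. Each was listed in 6 of 7 high fat 200, 6 of 7 low fat 200, 5 of 7 high fat 600 and 6 of 7 low fat 600 libraries.

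The SP4 region spans chr9:90335793-90337922. Its −log10 p ran from 4.2 over 5.11 to 10.3 in high fat 200, from 4.78 over 6.14 to 9.39 in low fat 200, from 3.4 over 4.22 to 8.13 in high fat 600 and from 3.84 over 4.95 to 8.02 in low fat 600. All 4 groups overlapped. The median summit stood 660 bp outside the gene, farther than at most of the regions.

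At ZBTB20 (chr13:144854656-144856778) the −log10 p ran from 3.77 to 8.83 in high fat 200, with a median of 4.81, and from 4 to 7.83 in low fat 200, with a median of 5.67. In the 600 libraries the ranges were 3.98 to 8.01 with high fat and 3.09 to 7.98 with low fat, around medians of 4.75 and 5.46. At TLE4 (chr1:232354790-232357221) the values ran from 4.07 to 10.4 in high fat 200 and from 4.09 to 10.1 in low fat 200, around medians of 5.28 and 6.78. They ran from 3.73 to 7.51 in high fat 600 and from 3.57 to 8.66 in low fat 600, around medians of 3.85 and 4.99. The summits of both regions lay outside the gene, by medians of 218 and 226 bp.

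These 3 regions ranked high within the libraries. Over the libraries that listed them, the median percentile of the peak's −log10 p among all peaks of the same library was 94.2 for SP4, 95.7 for ZBTB20 and 97.2 for TLE4. A percentile of 100 is the strongest peak of a library.

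Regions at 22 libraries lay at PGRMC2, which encodes a haem-binding membrane protein, and at HINT3, which encodes a histidine triad hydrolase. HINT3 was listed in all 7 high fat 200 libraries, with 6 of 7 in low fat 200, 5 of 7 in high fat 600 and 4 of 7 in low fat 600. At 21 libraries stood COQ10B, encoding a coenzyme Q binding protein, with SF3B1, a splicing factor, at the same region. HSPD1 and HSPE1, which encode the mitochondrial chaperonin and its cofactor and are known to share a promoter in mammals, shared a region at chr15:101372490-101374735 in 21 libraries. Further regions at 21 belonged to the protein phosphatase 2A subunit PPP2R5A, the nuclear basket protein TPR, the endoplasmic reticulum degradation factor UBXN4, the 3′ end processing factor PCF11 and the mitotic phosphatase regulator CDCA2. A region at 21 libraries near a long noncoding RNA also held an end of HSPA13, a microsomal member of the Hsp70 family.

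At 20 libraries the regions included PHTF2, the disulfide isomerase PDIA4, ZNF622, the GC-rich promoter binding protein GPBP1, the peptide amidating enzyme PAM, FOCAD and C8H4orf46, next to ETFDH of fatty acid oxidation. Over all of the 20 named regions with the most libraries, the median within-library percentile lay between 89.4, at UBXN4 and FOCAD, and 97.7, at COQ10B.

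By median percentile the leading regions were only in part those with the most libraries. WDR89 (98.3, 19 libraries), FER (98.1, 19), COQ10B (97.7, 21), GOLIM4 (97.6, 19) and ZCCHC2 (97.6, 18) had the highest median percentiles. FER encodes a cytoplasmic tyrosine kinase and GOLIM4 a Golgi membrane protein. The lowest were FAM76A (32.5, 14 libraries), the origin recognition subunit ORC6 (49.4, 14), ITFG2 (50.1, 14), CHCHD7 (61.6, 15) and the decapping enzyme DCP2 (63, 15). This order depends on which libraries list a region, since typical percentiles differ between libraries. Over the 11 libraries that listed at least 95% of the regions, each of these 10 regions had a value from all 11. There FER stood at place 4 of 349, WDR89 at 13, COQ10B at 15, ZCCHC2 at 25 and GOLIM4 at 27, with percentiles of 98.7 to 99.6. FAM76A (32.7), ORC6 (42.5) and ITFG2 (50.9) were again the lowest 3, while DCP2 stood at 70.5 and CHCHD7 at 87. Over whichever libraries listed a region, the median was 90.6 for the 349 regions and 90.8 for the 119 recurrent regions away from gene ends. Each set pools a different mix of libraries, and by library the order went both ways. The medians of gene-end and away peaks were 97.9 and 92 in high fat 200 replicate 1, but 70.8 and 97.4 in high fat 200 replicate 3. By median width, C13H3orf58 led with 2528 bp, followed by the calcineurin catalytic subunit PPP3CA (1816 bp), the zinc transporter SLC39A8 (1756 bp), the calcium pump ATP2B1 (1676 bp) and KLF13 (1674 bp). The median width over all 349 was 973.5 bp. These widths pool 200 and 600 libraries, which differ in width, and the mix differs by region. ATP2B1 was listed in 10 of the 200 set and 5 of the 600 set, with median widths of 1295 and 2444 bp, and C13H3orf58 in 7 and 8, with 2491 and 2786 bp. In the same 11 libraries the widest were KLF13 (2772 bp), C13H3orf58 (2641 bp), SLC39A8 (2042 bp) and ATP2B1 (2026 bp), with PPP3CA at place 8 (1913 bp).

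Most regions were listed by the same libraries, though not in a strict nested order. HINT3 was listed in high fat 600 replicate 2, which listed 2 of the regions, but not in high fat 600 replicate 4, which listed 58. In 11 libraries at least 95% of the 349 were listed, in 5 libraries under 5%, and 12 lay between. The 11 libraries held 1325 to 17652 peaks, and 328 regions were listed in every one of them. With high fat they were replicates 1 and 7 of both label numbers. With low fat they were replicates 1, 4, 6 and 7 of the 200 set and 1, 6 and 7 of the 600 set. Across the 12 libraries between, a region was listed in a median of 4, with a range of 2 to 12. What set a region with 23 libraries apart from one with 14 was therefore mostly its listing in libraries that held part of the set.

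Peak number did not fix the listing alone. High fat 200 replicate 3 held 6288 peaks and listed 257 of the 349 regions. Low fat 600 replicate 6 held 1325 peaks and listed 332, while high fat 600 replicate 3, with 1336 peaks, listed 150. Low fat 600 replicate 4 listed 243 with 526 peaks, and 46.4% of its peaks lay in the 349 regions. The share of a library's peaks in these regions ran from 0.51% in low fat 200 replicate 2 to that 46.4%, and in the largest library, high fat 200 replicate 1, it was 2.27%.

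**Figure D1:**
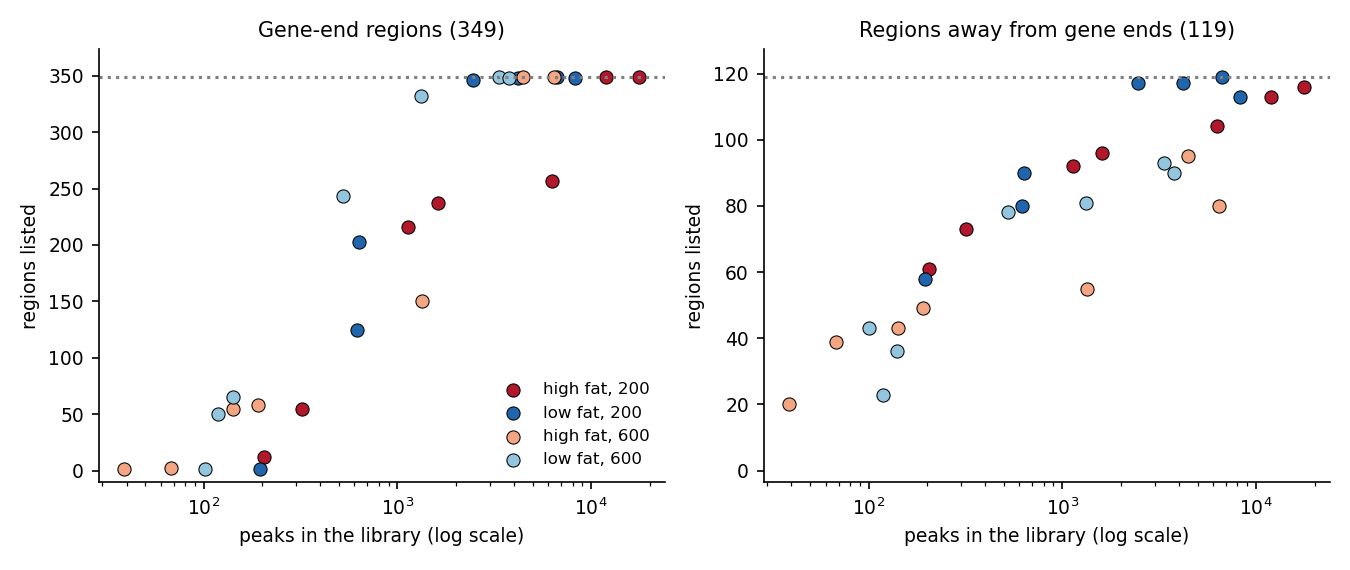
Number of listed regions (y axis) against the number of peaks of the library (x axis, log scale) for the 349 gene-end regions (left) and the 119 recurrent regions away from gene ends (right). Each point is 1 of 28 libraries, coloured by group, and the dotted line marks the full set. The gene-end regions go from 1 to 349, while the regions away from gene ends never fall under 20.

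**Figure D2:**
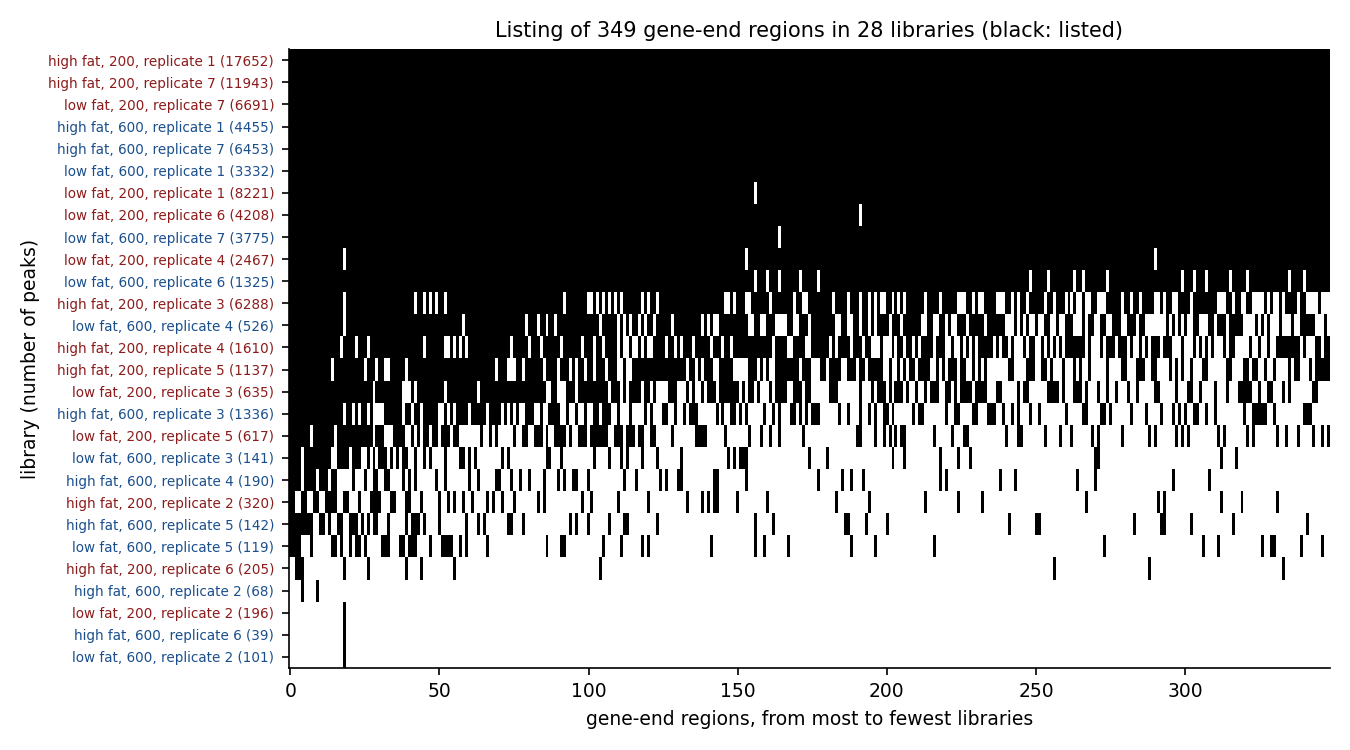
Listing of each of the 349 gene-end regions (x axis, ordered from 23 to 14 libraries) in each of the 28 libraries (y axis, ordered by the number listed, with the library's number of peaks and red names for 200, blue for 600). A black cell is a listed region. The upper 11 libraries are almost fully black and the lowest 5 almost empty.

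Many of the 119 recurrent regions away from gene ends were listed also in libraries that held few gene-end regions. In the 5 libraries that held under 5% of the gene-end regions, 66 of the 119 (55.5%) were listed at least once. These 5 held 39 to 205 peaks but were not the 5 smallest libraries. Low fat 600 replicate 5, with 119 peaks, listed 50 of the 349, and low fat 600 replicate 3, with 141 peaks, listed 65. These 5 libraries are set apart by their low share of gene-end regions, so the corresponding 13 of 349 is fixed by that choice. Away regions reached up to 28 libraries and the gene-end regions 23. In the smallest library, high fat 600 replicate 6 with 39 peaks, 20 away regions were listed and 1 gene-end region. Both sets were chosen by their listing, so this contrast is given without a test.

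Ranks within a library moved with the listing. In the 11 libraries that held at least 95% of the regions, the median percentile of their peaks' −log10 p lay between 79.1 and 97.9. In the other libraries it lay between 8.09, in high fat 600 replicate 2, and 77.6, in high fat 600 replicate 3. The lowest values rested on few peaks, 2 in high fat 600 replicate 2 and 1 in low fat 600 replicate 2, at 10.4. The median over the 28 libraries was 68.2.

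Summits stood close to the annotated ends. The median distance between a region's median summit and the gene end was 104 bp, and 286 of the 349 (81.9%) lay within 250 bp. Counted by single peaks, 76.8% of the 5635 gene-end peaks in these regions had their summit within 250 bp, against 73.5% of 36988 gene-end peaks outside them. The rule itself required a centre within 1000 bp, and its windows hold for both sets. The summit lay outside the gene in 221 regions and inside in 128, with a median of 51 bp outside, an upper quartile of 50 bp inside and a lower quartile of 124 bp outside. Over the libraries that listed a region, the SD of the summit position had a median of 93.5 bp and quartiles of 68.8 and 171 bp.

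**Figure D3:**
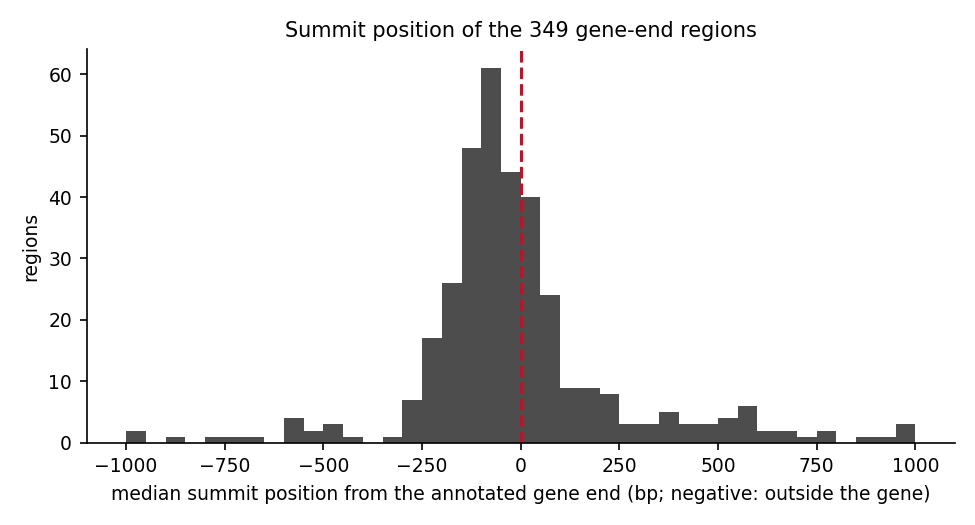
Histogram of the median summit position of the 349 regions relative to the nearest annotated gene end (x axis, bp, negative values outside the gene) in bins of 50 bp (y axis, number of regions). The dashed line is the annotated end. Most summits lie within 250 bp, more of them outside (221) than inside the gene (128).

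The nearest gene was protein-coding in 324 regions and a long noncoding RNA in 25, and it had a symbol in 318. The peaks sat at the lower coordinate end of the gene in 171 regions and at the higher end in 178. Coding genes at these regions had a median length of 40390 bp, against 20697 bp over all 19484 coding genes. In 105 regions the window took in ends of at least 2 genes, as at HSPD1 and HSPE1. Of the 324 coding genes, 97 (29.9%) had an end within 1000 bp of an end of another coding gene, close to the 28.1% of all coding genes, so shared ends were about as frequent as in the genome. Among 322 genes longer than 5000 bp, 11 (3.42%) had a peak at the opposite end in any library, and 0 had a region of at least 14 libraries there. Of 8093 coding genes over 5000 bp with a peak at an end, 381 (4.71%) had peaks at both ends.

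The chromosomes differed. Per 1000 coding genes there were 40.4 regions on chromosome 15, 33.6 on chromosome 9, 33.5 on chromosome 8, 31.9 on chromosome 16 and 31.8 on chromosome 13. The value was 17.9 over all chromosomes. It was 0.892 on chromosome 12, with 1 region for 1121 coding genes, 3.31 on chromosome 17, 6.56 on the X chromosome and 7.72 on chromosome 6. Gene-end regions of any library numbered 354 on chromosome 12, of which 0.282% were among the 349, against 8.58% of 466 on chromosome 9 and 3.88% overall. Chromosome 12 thus had gene-end peaks, but few of them in 14 or more libraries. In 4 places neighbouring regions lay within 50000 bp of each other, namely SAP30 with HMGB2, COQ10B with HSPD1, CCNYL1 with FZD5 and IDH1 with PIKFYVE, the last 8154 bp apart.

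**Figure D4:**
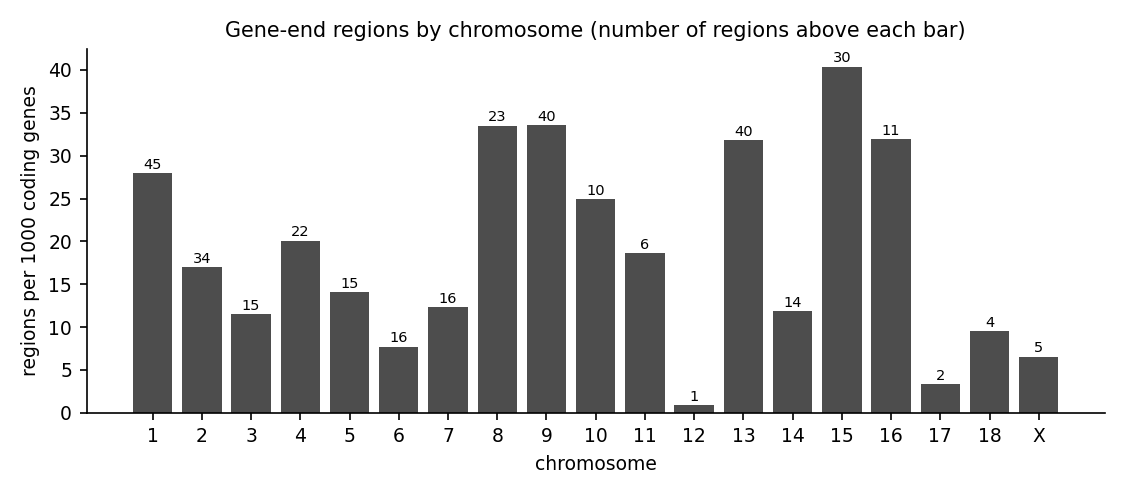
Gene-end regions per 1000 protein-coding genes (y axis) on each chromosome (x axis), with the number of regions above each bar. Chromosome 15 has the highest density, 40.4, and chromosome 12 the lowest, 0.892.

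Gene lists gave a view of the genes' functions. Of all coding genes, 417 of 19484 (2.14%) had such a region, and of 16315 with a symbol 2.45%. Among list genes the share was 56 of 532 (10.5%), and 39 of 474 (8.23%) without genes known from earlier results of these data. A peak near an end in any library was also more frequent among list genes, 81.2% against 47% of all coding genes. Where a list held such known genes, its count is also given without them. The lists too were chosen with earlier results known.

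Of heat shock proteins and co-chaperones, 8 of 28 (28.6%) had a region, and 5 of 25 (20%) without the genes known before. They were HSPA13, HSPD1, HSPE1, the cytosolic co-chaperone DNAJB1 and the constitutive chaperone HSPA8 (both in 19 libraries), DNAJC3 (18), the heat shock factor HSF2 (17) and DNAJB9 (16). Broadly expressed transcription factors had 10 of 44, and 7 of 41 without those genes. Beside SP4, ZBTB20 and TLE4 they were ZNF143 (17), E2F3 (16), KLF10 and SP1 (15 each), and ATF2, CREM and GABPA (14 each). Immediate early and stress genes had 4 of 19, and 3 of 17 without those genes, namely the AP-1 subunits JUN (16) and JUND (15) and the growth arrest genes BTG1 and GADD45A, both at 14.

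Vesicle traffic genes had 6 of 44 (13.6%), with RAB5B, RAB1A, RAB5A, RAB8A, SEC24D and the retromer subunit VPS35. Lipid and sterol genes had 5 of 40 (12.5%), with the adiponectin receptor ADIPOR1 and the leptin receptor overlapping transcript gene LEPROT, both at 19 libraries, the sterol synthesis enzyme HMGCS1 (16), and ACADM and ACSL3 (both 15), which oxidise and activate fatty acids. Without the genes known before the lipid count was 1 of 26 (3.85%). Cell cycle and repair genes had 5 of 44 (4 of 43 without the known genes), ubiquitin and proteasome genes 3 of 38 (2 of 37) and nuclear pore genes 2 of 28 (1 of 27). Chromatin modifiers had 4 of 43 and polymerase II and Mediator genes 3 of 40, and these lists, like vesicle traffic and translation, held no known gene. The lowest shares among housekeeping lists were 2 of 38 (5.26%) for splicing and export and 2 of 32 (6.25%) for mitochondrial respiration and import. Translation and ribosomal proteins had 1 of 27 (3.7%). These shares were not below the 2.14% of all coding genes. A peak near an end in some library was found for 92.1%, 93.8% and 92.6% of the genes of these 3 lists. Without the known genes splicing and export had 1 of 37 and the mitochondrial list 1 of 31. The clock had 1 of 16, which was ARNTL, and 0 of 13 without the known genes. Hepatocyte transcription factors had 0 of 21, and 0 of 17 without those genes, with an end peak in some library for 76.2% of the 21. For so few genes, a count of 0 is near the 2.14% of all coding genes.

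Further genes were grouped by role after the member names had been seen, so these groups are descriptions only. In protein folding and quality control of the endoplasmic reticulum, 12 genes were at members, listed in 14 to 20 libraries with a median of 15. PDIA4 (20) forms disulfide bonds, EDEM1 (19) and SEL1L (16) hand misfolded proteins to degradation, DNAJC3 (18) and DNAJB9 (16) are co-chaperones, EIF2AK3 (15) is the stress kinase PERK, STT3A (15) transfers sugar chains, and SEC61G, SERP1, SSR3 and VCP (14 each) serve translocation and extraction. In lipid metabolism, 11 genes stood at 14 to 19 libraries with a median of 18. Beside those named above were the sterol oxidase MSMO1 and the oxysterol binding protein OSBP (both 19), the acyltransferase AGPAT5 and the phospholipase PNPLA8 (both 18), and CROT and PANK3 (both 14). In sugar, amino acid and cofactor metabolism the glycogen branching enzyme GBE1, the nicotinamide riboside kinase NMRK1 and PRPS2 (all 19) led, followed by IDH1 (17) and NAMPT (15), with BCKDHB, HIBCH, PCCA, PDP1 and PKM at 14.

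Comparisons between fat groups were made over libraries, on all regions listed in at least 3 of them, with Fisher's exact test on the number of listing libraries and Benjamini-Hochberg adjustment over all regions tested. In the 200 libraries 0 of 7342 regions (0%) passed an adjusted p of 0.05, and 1 region had an unadjusted p under 0.05, which was none of the 349. For the 600 libraries 0 of 3398 (0%) passed and 0 were under 0.05 unadjusted. When a region was counted once for a 200 and 600 library with the same title number, 0 of 7883 (0%) passed, and 1 was under 0.05 unadjusted. The difference of the fat effect between label numbers, by exact permutation of the fat groups, passed in 0 of 8592 regions (0%), with 3 under 0.05 unadjusted and 0 among the 349. The smallest p of Fisher's exact test at 7 against 7 is 0.000583, so at least 86 regions of the 200 libraries, 40 of the 600 libraries and 92 of the number pairs would have to be listed in all of one group and none of the other for any to pass. No single region could pass on its own. None of the 349 could reach that split, since each group had a library that listed all 349. The 0 calls among them thus cannot show that the fat groups were alike.

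The mean number of gene-end regions listed was lower with high fat in both label numbers, by less than the SD between libraries. In high fat 200 a mean of 211 ± 132 regions (SD, n = 7) was listed, with a lowest value of 12, a median of 237 and a highest of 349. In low fat 200 it was 246 ± 140 (SD, n = 7), from 1 over 346 to 349. The 600 libraries had 138 ± 153 (SD, n = 7) with high fat, from 1 over 58 to 349, and 198 ± 155 (SD, n = 7) with low fat, from 1 over 243 to 349. The ranges of the fat groups overlapped in both label numbers, and each group had a library that listed 349. The difference of high minus low fat rested in part on single libraries. In the 200 libraries it was −35 regions, −1.88 without high fat 200 replicate 6 and −75.8 without low fat 200 replicate 2. In the 600 libraries it was −60.6, −35.5 without low fat 600 replicate 1 and −95.8 without high fat 600 replicate 1 or 7.

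By region, 201 of 349 (57.6%) were listed in fewer high fat than low fat 200 libraries and 43 (12.3%) in more. Over all 7342 regions tested, 40.6% were listed in fewer and 30.9% in more. With the 600 label 280 (80.2%) were in fewer high fat libraries and 14 (4.01%) in more, against 39.2% and 27.1% of the 3398 regions. Equal counts made up 30.1% of the 349 and 28.6% of all regions with the 200 label, and 15.8% and 33.7% with the 600 label. The 349 were listed in at least 14 of 28 libraries, but other regions needed only 3 of those compared. These shares are therefore not matched. Since most regions share the same listing libraries, these counts follow from few libraries and are not separate observations.

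The largest single differences did not pass. In the 200 libraries NFKBIZ, an inhibitor-type regulator of NF-kappa-B, BCKDHB, a subunit of the branched-chain keto acid dehydrogenase, ISOC1 and the polycomb-associated YAF2 were each listed in 2 of 7 high fat and 6 of 7 low fat libraries (Fisher's exact test, p = 0.103, adjusted p = 1). ARRDC4 had 3 of 7 against 6 of 7 (exact p = 0.266). In the other direction AGPAT5 had 7 of 7 against 5 of 7 (exact p = 0.462), and DNAJB1, OSBP, PRPS2 and BMT2 had 6 of 7 against 4 of 7 (exact p = 0.559). OSBP and AGPAT5 also led when number pairs were counted, with 7 of 7 high fat and 5 of 7 low fat pairs.

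In the 600 libraries ZNF622, FER, the mitochondrial ribosomal gene MRPS28, AZI2 and DCUN1D4 were in 2 of 7 high fat and 6 of 7 low fat libraries (exact p = 0.103). ZNF622 was in 6 of 7 libraries of both fat groups with the 200 label, and the difference of its fat effect between label numbers had an exact permutation p of 0.0699 and an adjusted p of 1. C3H16orf72 was in 3 of 7 high fat and 1 of 7 low fat 600 libraries (exact p = 0.559). HINT3, SRGAP2, CYB5A and RAB5B followed with 5 of 7 against 4 of 7.

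The 600 libraries listed a mean of 168 ± 151 of the regions and the 200 libraries 228 ± 132 (SD, n = 14 each), a difference smaller than the SD. This difference of −60.2 regions was 1.83 among the libraries of at least 1000 peaks, a setting chosen after the data had been seen. By region, 292 of 349 (83.7%) were in fewer 600 than 200 libraries and 18 (5.16%) in more, against 83.5% and 6.63% of the 8592 regions tested, so they followed the background of all regions. Among all regions 42 (0.489%) passed the adjusted threshold and 0 of the 349 did. In a sign test over title-number pairs, whose smallest p is 0.000122, 0 of 8592 passed. The 349 were chosen by their listing, and 328 were in all 11 libraries that held at least 95% of them. Those 11 include both label numbers, which limited how far the listing of the 349 could differ. Their low counts here therefore cannot be read as a property of gene ends. At an unadjusted p under 0.05 there were 387 (4.5%) over all regions in either direction. Lower in the 600 libraries were 384 of them (4.47%) and 5 of the 349 (1.43%). Of these HSF2 and UBP1, a CP2-type transcription factor, were in 5 of 14 against 12 of 14 libraries (Fisher's exact test, p = 0.0183, adjusted p = 0.772). C3H16orf72 had 4 of 14 against 11 of 14 (exact p = 0.0213, adjusted p = 0.772) and AGPAT5 6 of 14 against 12 of 14 (p = 0.0461, adjusted p = 0.772). HSF2 was in 6 of 7 libraries of both 200 groups, 2 of 7 high fat 600 and 3 of 7 low fat 600 libraries. In the other direction WDR89 had 11 of 14 against 8 of 14 (exact p = 0.42) and ACADM 9 of 14 against 6 of 14 (p = 0.449).

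Where both label numbers listed a region, its peak was wider in the 600 libraries. Width was not itself a criterion of the rule, but regions were chained by peak starts and ends, so width could enter the choice indirectly. This test was added after the data had been seen. It compared the width of the strongest peak of a library in the region by an exact rank-sum permutation test, two-sided, with at least 4 listing libraries of each label number and adjustment over 2165 regions. Of the 349 regions, 263 (75.4%) were wider in the 600 libraries at an adjusted p under 0.05 and 0 narrower, against 65.3% wider and 0% narrower over all regions tested. The median difference of log2 width was 0.75 for the 349 regions, from 0.11 to 1.85, and 0.75 for the other regions. The mean was higher in the 600 libraries for all 349 regions, and for 99.8% of all regions tested. The widths of both label numbers did not overlap at all in 33 regions (9.46%), against 33.5% of all regions tested. The shares of calls and of non-overlap depend on the number of listing libraries. It was at least 14 for the 349, but other regions needed only 4 of each label number, so these shares are not matched. With a median difference of 0.75 in both sets, the wider 600 peaks were not particular to these gene ends.

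**Figure D5:**
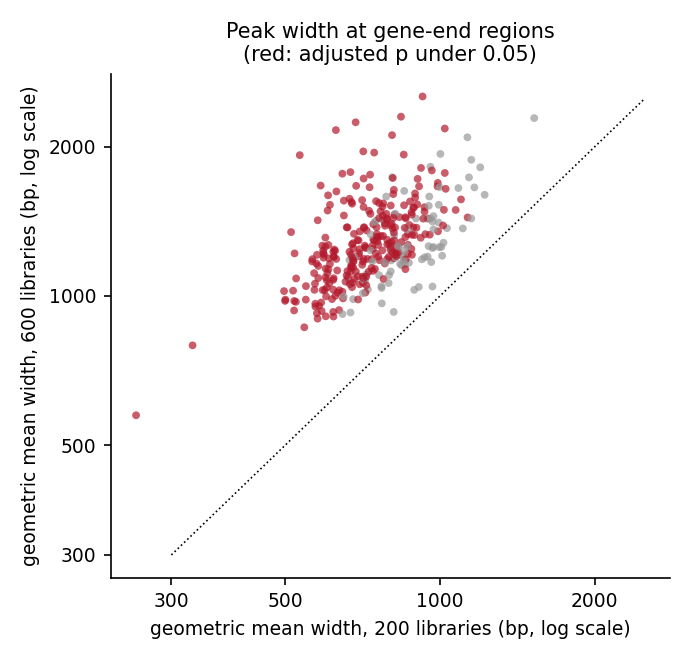
Geometric mean width of the peaks in the 600 libraries (y axis, bp, log scale) against the 200 libraries (x axis, bp, log scale) for the 349 gene-end regions. Red points have an adjusted p under 0.05 (263 regions), and the dotted line marks equal widths. All points lie above that line.

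Among the leading regions SP4 had widths from 440 over a median of 646 to 1437 bp in 12 libraries of the 200 set and from 791 over 1392 to 2130 bp in 11 of the 600 set. The log2 difference was 1.06 with an SE of 0.18 (exact rank-sum permutation test, adjusted p = 0.0037). HINT3 had 370 over 592 to 819 bp in 13 libraries against 785 over 932 to 1231 bp in 9, a log2 difference of 0.75 with an SE of 0.14 (exact permutation, adjusted p = 0.00218). The HINT3 widths of the label numbers met only between 785 and 819 bp. The smallest difference among the 20 leading regions was at PPP2R5A, with a log2 difference of 0.45 and an SE of 0.21 (exact permutation, adjusted p = 0.0486).

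The largest width differences were at FAT4, an atypical cadherin, with 323 to 814 bp in 8 libraries against 1423 to 3937 bp in 6 and a log2 difference of 1.85 with an SE of 0.28 (exact permutation, adjusted p = 0.018), ARL6IP6 (1.79, adjusted p = 0.017), the antiproliferative gene BTG3 (1.71, adjusted p = 0.0206), the Arp2/3 subunit ACTR3 (1.51, adjusted p = 0.018) and the GTPase RAP2B (1.47, adjusted p = 0.0223). FAT4, ARL6IP6, BTG3 and ACTR3 had no overlap between label numbers. At the other extreme the RNA-binding protein gene KHSRP had a log2 difference of 0.11 with an SE of 0.15 (exact permutation, adjusted p = 0.698), the protein kinase A catalytic subunit gene PRKACA 0.19, RPS6KA5 0.20, ZNF143 0.26 and USP25 0.28, none of which passed.

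Libraries with the same title number and fat group showed the wider 600 peaks one pair at a time. In the 4 pairs that shared at least 348 of the regions, the median log2 difference was 0.54 and 0.55 in replicates 1 and 7 with high fat, and 0.46 and 0.48 in those with low fat. The share of regions wider in the 600 library was 94.3%, 95.1%, 91.1% and 87.6% in these pairs. The 200 libraries of these pairs held 6691 to 17652 peaks and the 600 libraries 3332 to 6453. Over all 14 pairs the median ran from 0.41 to 1.22, where the pairs at both extremes shared only 2 and 1 of the regions.

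Between the fat groups no width difference passed. In the 200 libraries 267 of the 349 regions could be tested, with at least 4 listing libraries in each fat group. The median log2 difference of high minus low fat was −0.17, from −1.17 to 0.71. By the exact rank-sum permutation test 0 of 514 regions passed (0%), with 5 under 0.05 unadjusted, none of them among the 349. In the 600 libraries 51 of the 349 could be tested, and the median difference was −0.05, from −0.51 to 0.35. Here 0 of 93 regions passed (0%), with 2 under 0.05 unadjusted and none among the 349.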

How the data were processed

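ATAC-seq peak lists of 28 pig liver libraries were analysed, 4 groups of 7. Per the submitters' processing notes, FastQC, BWA, SAMtools, Picard and Genrich were used with the pig build Sscrofa11.1. The sources used here give no roles, versions or thresholds. The deposited table holds 1 list of peaks per library with position, score, signal, a p-value column and summit, per the file headers. The deposited signal is the area of a peak and was never under 400. The deposited score equalled 1000 times signal over width, capped at 1000, in 99.9988% of peaks and was not used further. The deposited p-value column holds −log10 p, at least 2.83, as the authors' own value for each peak, and was used to rank peaks within a library. The table holds no read counts, so sequencing depth is unknown and no interval or floor from counts is given. An unlisted region may be closed or too thinly sequenced.

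Positions are given 1-based in Sscrofa11.1. Genes came from the RefSeq table of that build, 28073 genes on the chromosomes used. Peaks with an overlap of at least 1 bp formed a region, named after the gene whose end was nearest to most of their peaks. The leading 20 regions with a symbol by number of libraries, the 4 strongest on either side of the limit of 14, the 5 highest and lowest by rank, the 5 widest and the 5 with the smallest p in each direction were named, where 1 of these regions is not reported here. The members and gene lists were chosen with earlier results of these data known. Listing was tested with Fisher's exact test, and the difference of the fat effect and widths with exact permutation tests, all two-sided with Benjamini-Hochberg adjustment over all regions tested. Scripts were tested on simulated data. Python 3.11.15, numpy 2.4.6, pandas 2.3.3 and scipy 1.17.1 were used. Alternatives changed the overlap, window, library minimum, peak strength, libraries and pairing. Sequences were not used here.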

Additional observations from a re-analysis of the deposited data

Results flagged for a closer look

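In 60 sets of 4 to 7 values, the library measures by group and the peaks of 3 leading regions by group, 9 held a sample far from the others, where chance gives about 1 in 20. Sets of the same library or region are not independent.

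Widths stood apart in 3 sets. The SP4 peak of low fat 200 replicate 7 was 1437 bp wide, against 440 to 717 bp in the other low fat 200 libraries. The TLE4 peak of high fat 200 replicate 1 was 1341 bp wide, against 447 to 750 bp. The TLE4 peak of low fat 200 replicate 1 was 938 bp wide, against 725 to 791 bp.

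Within-library percentiles of −log10 p stood apart in the other 6 sets, always on the low side. In high fat 200 replicate 2, which held 320 peaks, SP4 was at 47.5 (others 83.1 to 99.9). High fat 600 replicate 5, with 142 peaks, had SP4 at 28.2 (84.7 to 99.8). Low fat 600 replicate 3, with 141 peaks, had SP4 at 62.1 (86.1 to 99.6). In high fat 200 replicate 6, with 205 peaks, TLE4 was at 32.2 (86 to 99.9) and ZBTB20 at 14.6 (77.7 to 98.8). Low fat 200 replicate 3, with 635 peaks, had TLE4 at 56.9 (84.4 to 99.8). The part of library size in these values was not tested.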

How the results depend on the processing

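The number of regions chosen, 349, lay between 315 and 368 under an overlap of 200 bp, summits chained within 500 bp, windows of 500 or 2500 bp, location by summit or any overlap, coding genes or autosomes. It was 708, 153 and 24 with at least 12, 16 and 20 libraries, 77 with peaks above the label number's median strength, and 2092 in at least 8 of the 15 libraries of at least 1000 peaks, a setting chosen after seeing the data. Without 1 library it was 236 to 349. List genes with a region, 56, became 93 and 30 at 12 and 16 libraries. The fat comparisons and the difference of the fat effect gave 0 calls under every alternative run. Some of these left no or little room for a call. With at least 14 libraries required, the fat comparisons tested only regions listed in all 14 libraries or number pairs (44, 9 and 44 regions), where none could pass. With 7 pairs in each fat comparison of the replicate block, no single region could pass on its own. The 600 against 200 calls, 42 of 8592, became 25 of 468 with at least 14 libraries, 42 to 49 without 1 library, and 0 with the replicate block. Of the 349, 0 were called in each. The 25 calls thus all lay among the 119 regions away from gene ends. As stated above, the choice of the 349 limited how far their listing could differ. Title numbers did not pair the libraries by the criterion used: over regions, libraries with the same number and fat group correlated from 0.035 to 0.626, with 9 of 14 over 0.1, and 8 of 14 correlated best with their own number. For libraries of the same replicate number in different fat groups, 8 of 14 were over 0.1 and 4 of 14 correlated best with their own number. Whether the libraries are paired thus remains unknown. With the replicate block 203 of the 270 regions with at least 6 pairs were wider in the 600 libraries, against 263 of 349 without it, 223 with summed widths and 177 to 283 without 1 library.

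The listing difference of high minus low fat was −35 regions in the 200 libraries and −1.88 to −75.8 without 1 library, the extremes without high fat replicate 6 and low fat replicate 2. In the 600 libraries it was −60.6, and −35.5 to −95.8. The 600 minus 200 difference of −60.2 (−47.4 to −77.7) was 1.83 in the libraries of at least 1000 peaks. With the replicate block these means were the same by construction. The rank of 68.2 was 67.9 to 68.4 without 1 library. Among 1049 alternatives for named regions, 6 reversed, all with peaks above the median strength and all to −14.3 percentage points: BMT2 (2 comparisons), CYB5A, HINT3, LRRC42 and ITPR1. None of the named passed before or after, the lowest adjusted p being 0.238. Depth is unknown, so unlisted regions cannot be told from thinly sequenced ones. Sequence features and start against end were not run.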

Other observations

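One region, chosen after its values were seen, stood apart by the libraries that listed it. It lies at LOC110256816, a protein-coding gene without a symbol, at chr14:51719179-51720246, and was listed in 20 libraries. Among them were low fat 200 replicate 2, high fat 600 replicate 6 and low fat 600 replicate 2, in each of which it was the only one of the 349 regions. It was absent from low fat 200 replicate 4, which listed 346 of the 349. Its peaks were narrow, with a median of 346.5 bp over all libraries against 973.5 bp for all 349 regions, and only the region at LOC106506288 was narrower, at 265.5 bp in 18 libraries. In 200 libraries its width ran from 309 to 367 bp and in 600 libraries from 675 to 957 bp. Its −log10 p was 4.1 in the library of 39 peaks and 7.12 in that of 17652 peaks.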
